A study of Mus musculus with 4 samples.

Results

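The genes described here are 10 transcripts of the kidney's blood vessels and of the growth factor system that maintains them. They are Pecam1, Kdr, Flt1, Tek, Tie1, Cdh5, Emcn, Plvap, Eng and Vegfa. They were taken by name, and all of their probe sets that the platform annotation names were used, which gave 15 of 22690 probe sets and 10 of 12394 genes. A probe set is a group of short array probes that together give 1 value for a transcript. Pecam1, Kdr, Tek, Tie1, Emcn and Plvap had 1 probe set each, Cdh5, Eng and Vegfa had 2, and Flt1 had 3.

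The kidneys, taken whole, came from C57BL/6 mice that the labels give as males of 17 weeks, and were compared between 4 treatments, with 1 Affymetrix array each. The Saline+Water mice received 0.15 M NaCl into the peritoneum and drank plain water, and the Saline+Captopril mice received the same injections and 100 mg/kg/day of captopril in the drinking water. Captopril inhibits angiotensin converting enzyme, a protease of the endothelial surface. The GN+Water and GN+Captopril mice had glomerulonephritis (GN), in which the kidney's filters are inflamed, brought on by 10 mg of horse spleen apoferritin on 5 days a week with 100 µg of lipopolysaccharide 3 times a week for 6 weeks, and drank water or captopril. Injections began at about 8 weeks of age and kidneys were taken after 9 weeks. Each treatment had 6 mice, and it is not stated whether the RNA on an array came from 1 mouse or from a pool. With 1 array per treatment no difference below has a replicate check, an error or a test.

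In the kidney, VEGF-A is made mainly by podocytes and tubule cells and acts on the neighbouring capillaries through the receptor kinase encoded by Kdr. Flt1 encodes a receptor that binds VEGF-A tightly and, in a secreted form, withholds it from Kdr. Tek and Tie1 encode the paired receptors of the angiopoietins, which steady the resting vessel wall, and the remaining genes encode junction, surface and diaphragm proteins of endothelial cells.

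2 arrays stood apart from the rest, which limits every value drawn from them. The array labelled GN+Water went against its male label: Xist stood at 8.97 on it (probe set 1436936_s_at, log2) and at 5.02 to 5.21 elsewhere, and the Y-linked Eif2s3y stood at 3.43 against 8.02 to 8.29. It is called the array labelled GN+Water in what follows. Saline+Water had a median spike-in control of 10.8 against 7.46 to 7.89 on the other arrays, and its correlation with them over all probe sets was 0.945 to 0.966. GN+Captopril and Saline+Captopril correlated at 0.994 and are the pair that uses neither of these arrays. The kidney label was checked against the 6 proximal tubule genes past the filter described below, whose mean level was 11.9 to 12.3 on each array. The fat cell gene Adipoq was also present, at 6.24, 7.77, 8.25 and 8.92 on Saline+Water, Saline+Captopril, the array labelled GN+Water and GN+Captopril.

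All 15 probe sets lay above the 90th percentile of 27 negative controls on every array. For a gene with several probe sets, the one with the highest mean was used, and a gene entered the comparisons if this mean was 6.27 (log2) or more, the 40th percentile over the whole array. That left 8207 genes, and all 10 described here were among them, with 13 of their 15 probe sets. The exceptions were a Cdh5 probe set with a mean of 4.91 and a Flt1 probe set with a mean of 6.10. Levels below are log2 values and are set against each other only within a probe set. In whole kidney RNA, fewer endothelial cells and less of a transcript per cell cannot be told apart.

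In captopril-treated mice the 10 genes differed by at most 1.29-fold between GN and saline kidneys, where most macrophage markers differed by more than 1.5-fold. On GN+Captopril relative to Saline+Captopril, the log2 difference lay between −0.08 for Flt1 and 0.37 for Pecam1, with a median of 0.12, and 8 of the 10 genes were higher. Over all 8207 genes the median was 0 and 47.8% were higher. At a threshold of 1.5-fold, 0 of the 10 were higher, beside 1.85% of all genes, and 0 were lower, beside 0.207%. In the same pair, 8 of 9 macrophage and leukocyte markers were at least 1.5-fold higher, with a median difference of 1.12, and their summed level on the linear scale was 8878 against 3136.

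**Figure D1:**
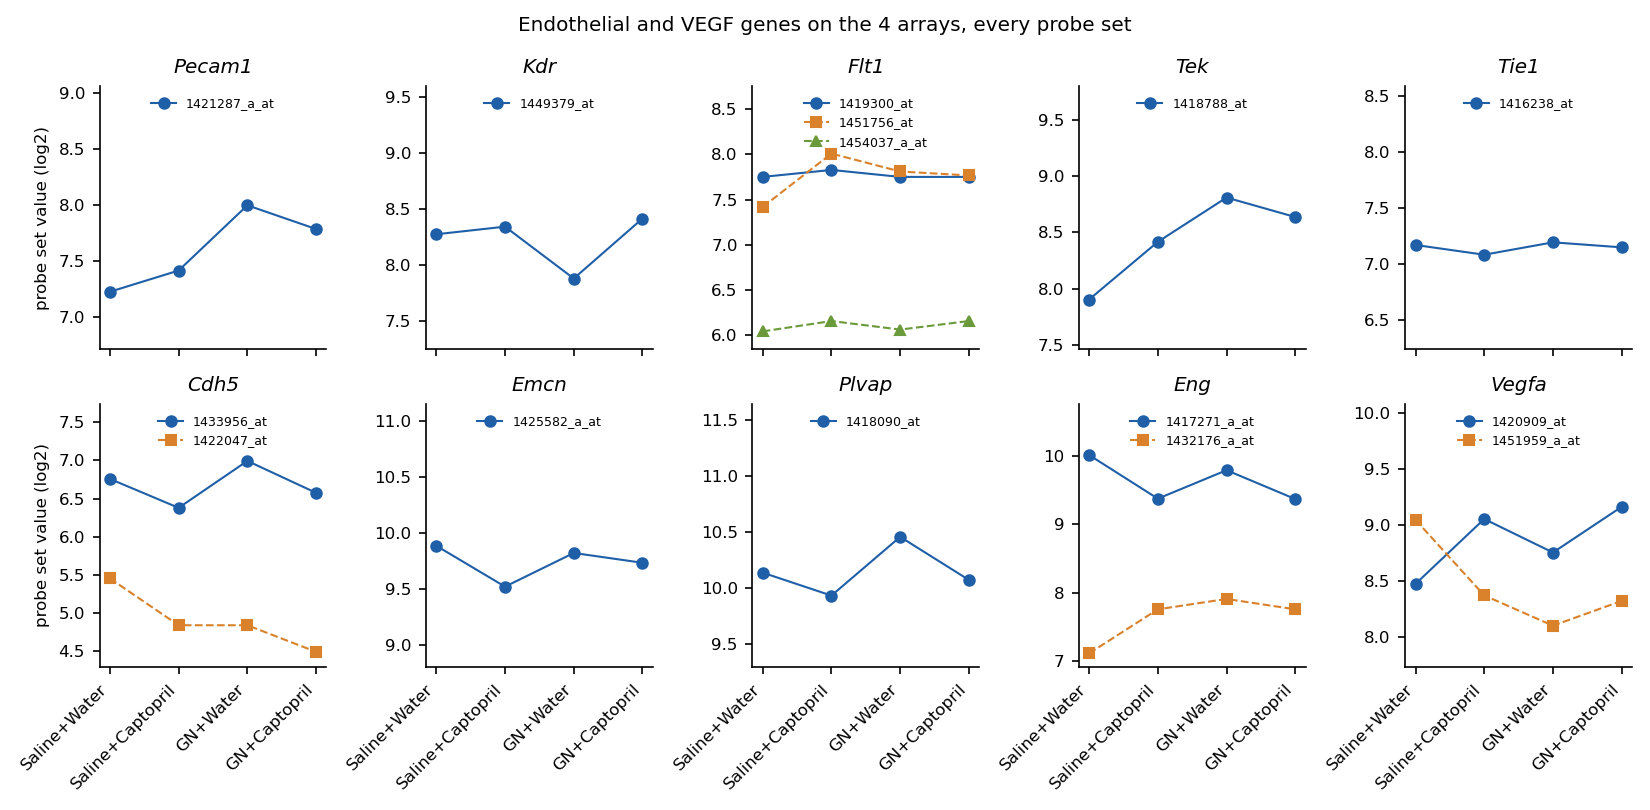
Level of every probe set of the 10 genes on each of the 4 arrays (log2, 1 array per treatment, solid line for the probe set with the highest mean, dashed for the others; lines join the arrays of a probe set and imply no order). Pecam1 and Tek are lowest on Saline+Water and highest on GN+Water, Kdr is lowest on GN+Water, and the probe set pairs of Eng and of Vegfa run opposite ways between Saline+Water and the other arrays.

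Kdr, the main signalling receptor for VEGF-A, stood at 8.27 on Saline+Water, 8.34 on Saline+Captopril, 8.42 on GN+Captopril and 7.88 on the array labelled GN+Water. The other 3 arrays lay within 0.14 of each other, and the array labelled GN+Water lay 0.39 below the lowest of them. On that array Kdr was 1.31-fold lower than on Saline+Water, 1.38-fold lower than on Saline+Captopril and 1.45-fold lower than on GN+Captopril. Kdr was the one gene of the 10 with its lowest level on that array alone, Flt1 being tied there with Saline+Water and GN+Captopril, and 5 others, Pecam1, Tek, Tie1, Cdh5 and Plvap, had their highest level on the same array. This is the array with discordant sex-linked transcripts, and the part of that in the Kdr value was not tested.

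Flt1, the tight-binding receptor, showed small differences on 2 of its 3 probe sets. Probe set 1419300_at read 7.83 on Saline+Captopril, 7.75 on Saline+Water and GN+Captopril, and 7.75 again on the array labelled GN+Water. Probe set 1454037_a_at lay between 6.04 and 6.15. The third, 1451756_at, stood at 7.42 on Saline+Water against 8.01, 7.81 and 7.77 on Saline+Captopril, the array labelled GN+Water and GN+Captopril. Its 1.51-fold difference between the saline arrays therefore rested on 1 of 3 probe sets and on the Saline+Water array. On the remaining 3 arrays 1419300_at spanned 0.08, 1454037_a_at 0.09 and 1451756_at 0.24.

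Tek, the receptor that angiopoietins activate, had the widest spread of the 10 genes on the probe sets with the highest means, 0.91 over the 4 arrays. It stood at 7.90 on Saline+Water, 8.42 on Saline+Captopril, 8.64 on GN+Captopril and 8.81 on the array labelled GN+Water. Both GN arrays thus lay above both saline arrays, as they did for 16.1% of all genes. The GN difference was 0.91 (1.88-fold) on water and 0.22 (1.17-fold) on captopril, and relative to Saline+Captopril the array labelled GN+Water was 1.32-fold higher.

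Tie1, its partner receptor, barely differed, at 7.17, 7.08, 7.19 and 7.15 on Saline+Water, Saline+Captopril, the array labelled GN+Water and GN+Captopril. Its spread of 0.11 over the 4 arrays compares with a median spread of 0.51 over all 8207 genes. The 2 receptors of the same pathway therefore had different profiles on these arrays, Tek with both GN levels above both saline levels and Tie1 with a span of 0.11.

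The sequences before the start sites of these receptor pairs are shown next, and any part of them in the profiles was not tested. ETS factors, a family that drives many endothelial genes, bind DNA around the letters GGAA, and the motif GGAAG was searched on both strands (as GGAAG or CTTCC). The windows hold the 250 bases before the start site in RefSeq's table for GRCm38.p6, written along the gene's own strand, with the motif in capitals.
Kdr, chr5:75978456-75978705, minus strand: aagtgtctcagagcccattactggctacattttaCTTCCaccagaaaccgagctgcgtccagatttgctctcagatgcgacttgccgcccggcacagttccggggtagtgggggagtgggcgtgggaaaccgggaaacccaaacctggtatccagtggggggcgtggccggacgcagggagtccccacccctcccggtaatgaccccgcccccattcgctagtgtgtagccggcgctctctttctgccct
Flt1, chr5:147726012-147726261, minus strand: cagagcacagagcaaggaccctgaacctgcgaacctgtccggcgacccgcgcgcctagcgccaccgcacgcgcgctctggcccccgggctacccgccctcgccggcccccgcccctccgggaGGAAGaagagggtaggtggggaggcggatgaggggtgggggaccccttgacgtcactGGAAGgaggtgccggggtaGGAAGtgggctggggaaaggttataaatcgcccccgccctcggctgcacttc
Tek, chr4:94739039-94739288, plus strand: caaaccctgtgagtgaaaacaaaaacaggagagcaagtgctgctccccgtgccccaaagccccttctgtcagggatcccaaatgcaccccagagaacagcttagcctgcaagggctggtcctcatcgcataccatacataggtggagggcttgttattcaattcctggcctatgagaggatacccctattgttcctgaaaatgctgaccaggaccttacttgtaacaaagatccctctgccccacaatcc
Tie1, chr4:118489850-118490099, minus strand: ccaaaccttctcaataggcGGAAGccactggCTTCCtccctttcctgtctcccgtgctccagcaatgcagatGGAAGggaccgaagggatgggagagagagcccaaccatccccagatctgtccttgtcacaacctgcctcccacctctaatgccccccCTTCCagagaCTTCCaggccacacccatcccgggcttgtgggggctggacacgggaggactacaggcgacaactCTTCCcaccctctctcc
Kdr's window held 1 match, Flt1's 3, Tek's 0 and Tie1's 6, and the GC content was 61.6%, 70.4%, 51.2% and 60.4%. Of all 32851 windows of this length in the table, 64.1% held the motif, with a median of 1 match. Of the 10 genes 7 had a window, 8 windows in all because Vegfa has 2, and 7 of the 8 held GGAAG. Cdh5, Plvap and Pecam1 had none. The letters ACGTG, the core bound by hypoxia-inducible factors and also part of the E-box CACGTG, were found in 1 of the 8 windows, the second of Vegfa, and in 16.6% of all windows. On the minus strand that window, chr17:46025164-46025413, lies downstream of Vegfa's first window, chr17:46032378-46032627, which held 0 matches. These matches describe letters in a window and no binding was measured.

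Vegfa encodes the ligand of Kdr and Flt1. Its probe set with the highest mean, 1420909_at, stood at 8.48 on Saline+Water, 9.06 on Saline+Captopril, 9.16 on GN+Captopril and 8.76 on the array labelled GN+Water. Both captopril arrays lay above both water arrays. The captopril difference was 0.58 (1.49-fold) in saline mice, just short of the 1.5-fold line, and 0.41 (1.33-fold) in GN mice, while the GN difference was 0.11 on captopril and 0.28 on water.

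The other Vegfa probe set, 1451959_a_at, did not show this order. It stood at 9.05, 8.37, 8.10 and 8.32 on Saline+Water, Saline+Captopril, the array labelled GN+Water and GN+Captopril. In saline mice its captopril difference was −0.67, the other way, and in GN mice 0.22, the same way as the first probe set. The probe sets of Vegfa therefore agreed in sign on the captopril difference in GN mice and disagreed wherever Saline+Water was used. Their GN difference on captopril was 0.11 and −0.05, so that both placed Vegfa within 1.08-fold between the captopril arrays, which are not among those that stood apart.

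Pecam1 encodes an adhesion molecule of endothelial junctions that platelets and leukocytes carry as well. It stood at 7.22 on Saline+Water, 7.41 on Saline+Captopril, 7.78 on GN+Captopril and 7.995 on the array labelled GN+Water. Both GN arrays lay above both saline arrays, as they did for Tek. This order held for 2 of the 10 genes, beside 16.1% of all genes. The GN difference was 0.37 (1.29-fold) on captopril, the highest of the 10 genes in that pair, and 0.77 (1.71-fold) on water.

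Markers of leukocytes were higher, as Pecam1 was, on both GN arrays than on both saline arrays, in 9 of 9 past the filter. The summed level of the 9 macrophage and leukocyte markers past the filter was 3131 on Saline+Water, 3136 on Saline+Captopril, 8878 on GN+Captopril and 14621 on the array labelled GN+Water. Between the saline arrays, where Pecam1 was 0.19 higher on captopril, 4 of these 9 markers were higher and their median difference was −0.05. The macrophage lysozyme gene Lyz2 stood at 8.86 and 8.81 on the saline arrays and at 12.72 and 12.01 on the GN arrays, steps of 3.86 on water and 3.20 on captopril against 0.77 and 0.37 for Pecam1. Of the platelet markers, Pf4 was at 6.18, 7.05, 7.42 and 7.15 and Itga2b at 7.86, 7.81, 7.47 and 7.81 on Saline+Water, Saline+Captopril, the array labelled GN+Water and GN+Captopril. Their part in the Pecam1 values was not tested.

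Cdh5 encodes VE-cadherin, the adherens junction protein of endothelium. Probe set 1433956_at stood at 6.76, 6.38, 6.99 and 6.58 on Saline+Water, Saline+Captopril, the array labelled GN+Water and GN+Captopril. It was lower on both captopril arrays than on both water arrays, by 0.38 in saline mice and 0.42 in GN mice. The weaker probe set 1422047_at, at 5.45, 4.84, 4.84 and 4.49, gave captopril differences of −0.61 and −0.35, the same sign. On the GN difference the probe sets of Cdh5 opposed each other in both pairs, with 0.20 and −0.35 on captopril and 0.24 and −0.61 on water.

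Emcn, a sialomucin of capillary and venous endothelium, stood at 9.89, 9.52, 9.82 and 9.74 on Saline+Water, Saline+Captopril, the array labelled GN+Water and GN+Captopril. Plvap, which forms the diaphragms of fenestrated capillaries such as those around the tubules, stood at 10.1, 9.93, 10.5 and 10.1. Both were lowest on Saline+Captopril. Plvap was 1.15-fold lower on captopril than on water in saline mice and 1.31-fold lower in GN mice, and Emcn was 1.29-fold and 1.06-fold lower. For both genes the captopril difference in saline mice uses Saline+Water and that in GN mice uses the array labelled GN+Water.

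Eng encodes endoglin, a co-receptor of endothelial TGF-beta and BMP signalling. Probe set 1417271_a_at stood at 10.01 on Saline+Water, 9.37 on Saline+Captopril, 9.37 on GN+Captopril and 9.79 on the array labelled GN+Water. Its captopril differences were −0.64 (1.56-fold lower) in saline mice and −0.42 (1.34-fold lower) in GN mice. Probe set 1432176_a_at stood at 7.11, 7.75, 7.75 and 7.91 in the same order of arrays and was 1.56-fold higher, not lower, on captopril in saline mice. The call on Eng in saline mice thus changed sign with the probe set, and the mean of both gave a difference of 0.0034. In GN mice both were lower on captopril, by 0.42 and 0.15, and between the captopril arrays they differed by 0.01 or less.

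**Figure D2:**
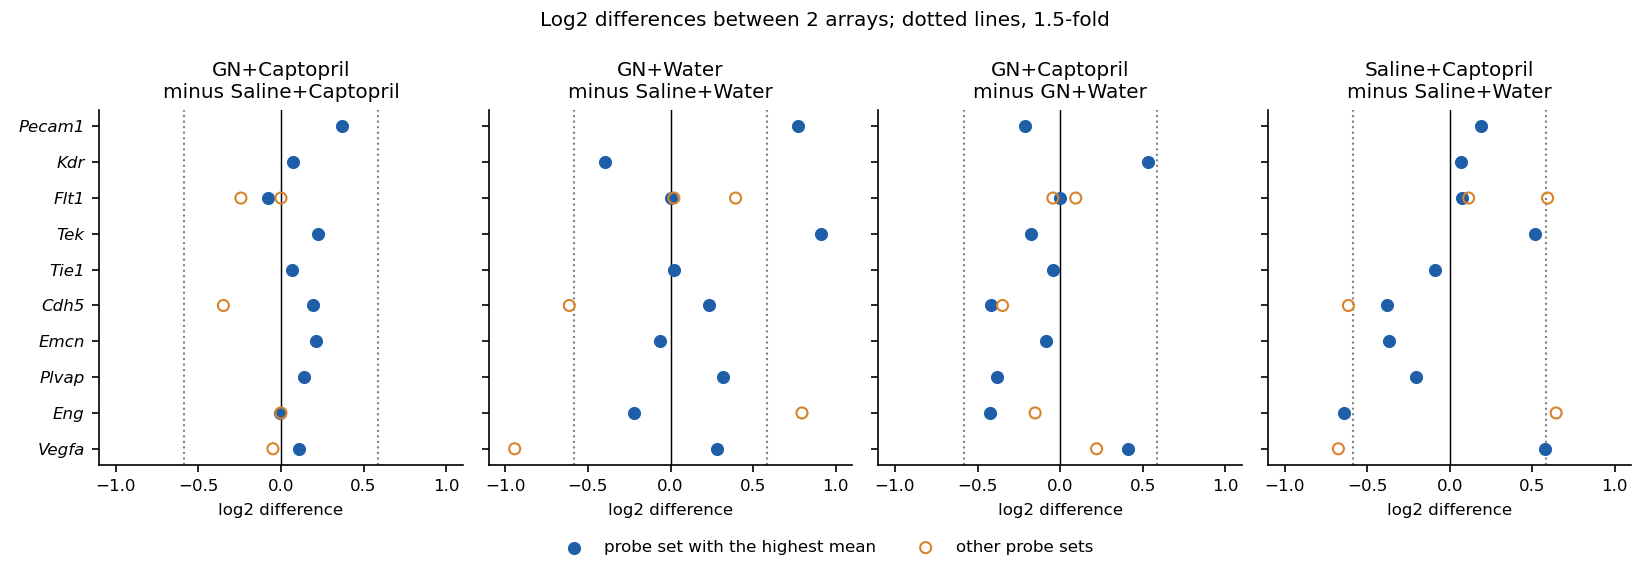
Log2 difference of each of the 10 genes in 4 pairs of arrays (filled points, probe set with the highest mean; open points, other probe sets; dotted lines, 1.5-fold). All points of the captopril pair lie between −0.35 and 0.37, and the pairs with Saline+Water hold the widest disagreements between probe sets, up to 1.28 for Eng.

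Over the 10 genes together, GN mice on water had 2 genes at least 1.5-fold higher than saline mice on water, Pecam1 and Tek, beside 19.6% of all genes, and 0 lower, beside 15.3%. The median difference was 0.13. This count changed with the baseline: relative to Saline+Captopril the array labelled GN+Water had 1 gene at least 1.5-fold higher, Cdh5 at 1.53-fold, beside 6.31% of all genes, and 0 lower, beside 3.03%. That call rested on 1 of the 2 probe sets of Cdh5, since the weaker one read 4.84 on both of these arrays. Pecam1 was then 1.497-fold higher, just short of the line, Plvap 1.44-fold and Eng 1.33-fold, and the median was 0.35. The signs of 8 of the 10 genes in the water pair held under median centring, quantile normalisation and cyclic loess, and those of Flt1 and Tie1, at 0.00 and 0.02, did not.

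Captopril-treated GN mice relative to GN mice on water had 0 of 10 genes at least 1.5-fold higher, beside 3.7% of all genes, and 0 lower, beside 4.52%. The differences ran from −0.42 for Eng and Cdh5 to 0.54 for Kdr, with a median of −0.13. Kdr and Vegfa were higher on captopril, Flt1 was equal, and 7 genes were lower. The median size of the difference, sign aside, was 0.30 for the 10 genes and 0.15 for all genes. In this pair the macrophage and leukocyte markers had a median difference of −0.71 and the podocyte markers one of −0.36, beside the 10 genes' −0.13, on arrays that also differ in the sex-linked transcripts.

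Saline mice on captopril relative to saline mice on water had 0 of the 10 genes at least 1.5-fold higher, beside 15.6% of all genes, and 1 lower, Eng on one of its probe sets, beside 10.2%. The median was −0.01, with 5 genes higher and 5 lower. The differences ran from −0.64 for Eng to 0.58 for Vegfa. Quantile normalisation left 3 genes higher, since Kdr and Flt1, at 0.07 and 0.08, changed sign.

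The 5 genes among the rest of the 8207 whose profile over the 4 arrays was most like the median profile of the 10 were Chn1, Ppib, Ccnd3, Rps26 and Smpd1. Likeness was the root mean square distance between profiles centred on their own means, 0.0069 for Chn1 and 0.015 for Smpd1, against a median of 0.22 for all genes. The median profile itself was shallow, −0.13 on Saline+Captopril and 0.12 on the array labelled GN+Water, and it rests on 4 points.

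Further genes of the VEGF and angiopoietin systems, and the other lists below, are also given by the probe set with the highest mean. Of 7 other VEGF ligands and receptors 5 passed the level filter, and on GN+Captopril relative to Saline+Captopril their differences lay between −0.09 and 0.13, with 0 at least 1.5-fold higher or lower. Nrp1, the co-receptor that presents VEGF-A to Kdr, stood at 8.42 on Saline+Water and at 9.56, 9.94 and 9.69 on Saline+Captopril, the array labelled GN+Water and GN+Captopril. Vegfb, a ligand of Flt1, stood at 9.62 on Saline+Water against 8.47, 8.57 and 8.40. In both genes Saline+Water stood away from the other 3 arrays, in opposite directions. Nrp1 had 3 probe sets, whose difference between the saline arrays was 1.15, 0.86 and 0.18. Flt4, the receptor of lymphatic vessels, lay between 6.42 and 6.76.

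Of the angiopoietins, Angpt1, which activates Tek, stood at 7.33 on Saline+Water and at 6.71, 6.83 and 6.83 on Saline+Captopril, the array labelled GN+Water and GN+Captopril. Angpt2, which can oppose it, lay between 6.51 and 6.72. Ptprb, the phosphatase that restrains Tek, stood at 8.10, 8.34, 8.70 and 8.34, highest on the array labelled GN+Water as Tek was. On GN+Captopril relative to Saline+Captopril 0 of the 3 measured genes were at least 1.5-fold apart, and on the array labelled GN+Water relative to Saline+Captopril 0 were as well.

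Other endothelial surface and junction genes were listed as well. Of 27 listed genes, 24 were on the array and 19 passed the filter. On the array labelled GN+Water, 8 of the 19 were at least 1.5-fold higher relative to Saline+Captopril and 1 was lower, with a median of 0.41, beside 6.31% and 3.03% of all genes and 1 and 0 of the 10 genes. Relative to Saline+Water 9 were higher and 0 lower, beside 19.6% and 15.3% of all genes. On GN+Captopril relative to Saline+Captopril 1 of the 19 was at least 1.5-fold higher, Aplnr, and 0 were lower, with a median of 0.12, equal to that of the 10 genes to 2 decimals. The difference between these lists was not tested.

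Aplnr, the apelin receptor of growing vessels, stood at 5.23 on Saline+Water, 7.32 on Saline+Captopril, 8.32 on GN+Captopril and 8.89 on the array labelled GN+Water on probe set 1438651_a_at. Its other probe set, at 6.56, 6.42, 6.84 and 7.34 in the same order of arrays, also placed both GN arrays above both saline arrays, with GN differences of 0.41 on captopril and 0.78 on water against 1.002 and 3.66 on the first. Calcrl, the receptor subunit for adrenomedullin, stood at 5.36, 6.26, 6.83 and 7.37 in that order, again with both GN arrays above both saline arrays. Calcrl passed the filter of 6.27 with a mean of 6.45, which includes its highest level, on the array labelled GN+Water. The place of Calcrl among the genes counted as higher on that array therefore rests in part on the same value.

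Of 11 endothelial transcription factors listed, 7 passed the filter. Erg, Sox7, Tal1 and Lyl1 missed it and were lower in GN, at −0.60 to −0.08 on water and −0.24 to −0.03 on captopril. Of the 7 past the filter, 5 had both GN arrays above both saline arrays, beside 16.1% of all genes, and Sox17 and Gata2 did not. Fli1, Ets1, Klf2 and Klf4, 4 in all, exceeded Saline+Captopril by 1.5-fold or more on the array labelled GN+Water, where 6.31% of all genes did. On GN+Captopril 0 of the 7 did, beside 1.85% of all genes. Klf4 passed the filter of 6.27 with a mean of 6.35, which includes its highest level, on the array labelled GN+Water. The place of Klf4 in the counts of 5 and 4 genes therefore rests in part on that array. Klf2, a factor that responds to blood flow, stood at 7.45, 7.59, 8.58 and 7.73 on Saline+Water, Saline+Captopril, the array labelled GN+Water and GN+Captopril. Ets1 and Klf4 are also expressed in leukocytes or other kidney cells, and Ets1 stood at 6.50, 7.70, 8.39 and 7.95 and Klf4 at 5.04, 6.39, 7.30 and 6.66 on these arrays. Relative to Saline+Captopril, the 4 probe sets of Ets1 were 1.61-fold and 1.497-fold higher and, for the other two, 1.04-fold lower on the array labelled GN+Water. The macrophage and leukocyte markers had a median of 1.72 on the array labelled GN+Water relative to Saline+Captopril, and their part in these values was not tested.

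**Figure D3:**
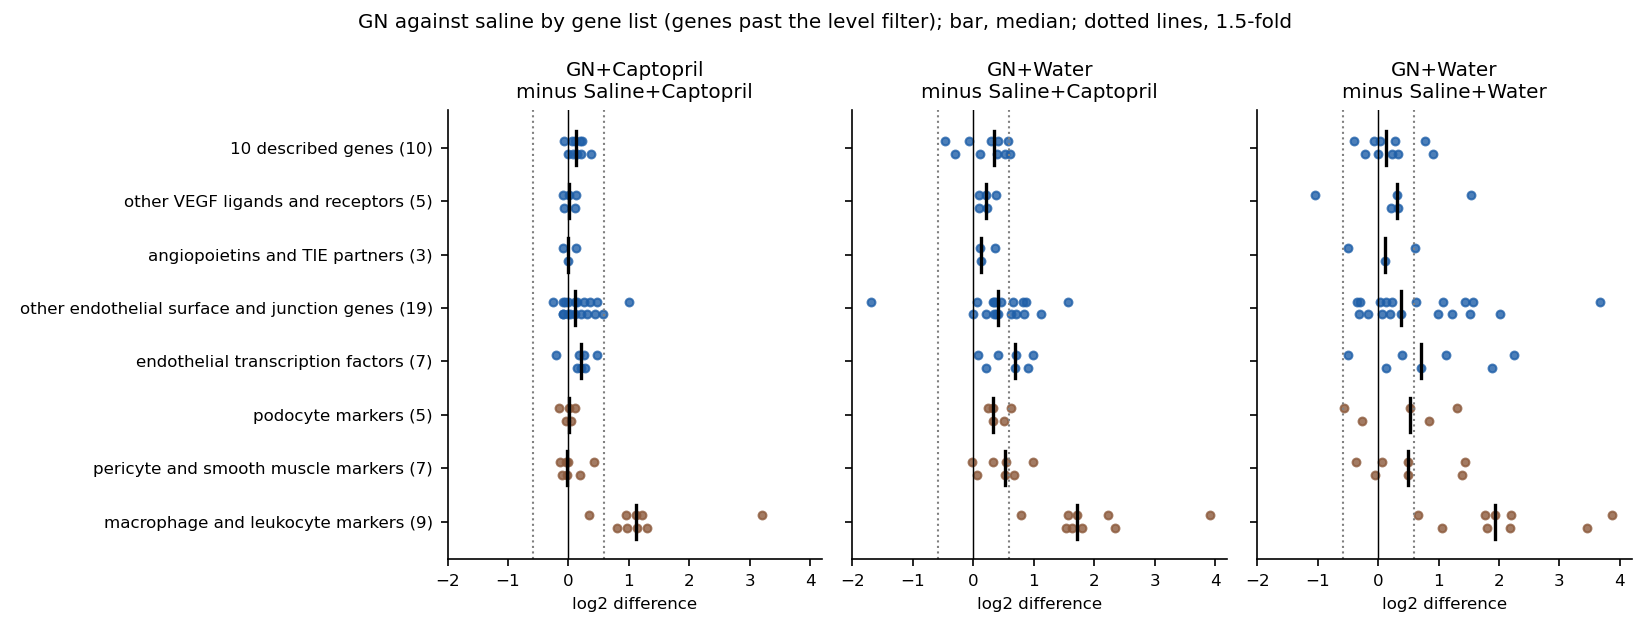
Log2 differences of genes past the level filter, by list, in 3 pairs of arrays (points, genes; black bar, median; dotted lines, 1.5-fold; blue, endothelial and VEGF lists; brown, other cell types; number of genes in brackets). On GN+Captopril relative to Saline+Captopril the 10 described genes have a median of 0.12 and the macrophage and leukocyte markers one of 1.12.

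Lists of vessel type and signalling added few differences in the captopril pair. Of the artery, vein and Notch genes 5 of 10 passed the filter, and their differences lay between −0.10 and 0.07. Notch1 stood at 6.76, 7.07, 7.49 and 7.07 on Saline+Water, Saline+Captopril, the array labelled GN+Water and GN+Captopril. It had the largest difference of these 5 over all pairs, 0.73 for GN on water, and differed by 0.00 in the captopril pair. Its other probe set, with a mean of 6.15, gave −0.36 for GN on water, the other way, and 0.09 in the captopril pair. Ephb4 lay between 7.46 and 7.74 and Nr2f2, a vein factor, between 9.70 and 9.89. The lymphatic markers Prox1 and, on one of its 2 probe sets, Lyve1 did not exceed the background limit on any array, and Pdpn, which podocytes also express, lay between 7.30 and 7.85. Among 9 measured partners of endoglin in TGF-beta and BMP signalling, 0 were 1.5-fold apart in the captopril pair, and Smad4, Tgfbr1 and Smad1 stood at 8.10, 8.40 and 6.82 on Saline+Water, below the other 3 arrays, which lay at 9.85 to 10.02, 9.49 to 9.89 and 7.33 to 7.79.

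Markers of the cells next to these vessels were also compared. The 5 podocyte markers past the filter, from the cells that supply VEGF-A to the glomerulus, had differences of −0.16 to 0.11 on GN+Captopril relative to Saline+Captopril. Nphs1, the nephrin gene, stood at 7.90, 7.08, 7.33 and 7.12 on Saline+Water, Saline+Captopril, the array labelled GN+Water and GN+Captopril, Ptpro at 6.47, 7.44, 7.76 and 7.40, and Cdkn1c at 7.95, 8.17, 8.79 and 8.01. For the 7 pericyte and smooth muscle markers the differences in the captopril pair ran from −0.13 to 0.42, and Rgs5, a pericyte gene, stood at 8.57 on Saline+Water against 9.49, 10.01 and 9.36. Thick ascending limb genes, from a Vegfa-expressing segment, had differences of −0.39 to 0.21 in that pair.

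Genes of oxygen sensing, which controls Vegfa in many tissues, had a median difference of 0 in the captopril pair. Of 13 past the filter, 1 was at least 1.5-fold higher on GN+Captopril than on Saline+Captopril, Egln3, a hypoxia-induced prolyl hydroxylase gene, at 1.62-fold on one of its probe sets and 1.09-fold on the other. Hif1a stood at 8.13 on Saline+Water and at 9.64, 10.05 and 9.68 on Saline+Captopril, the array labelled GN+Water and GN+Captopril. Its 4 probe sets gave a difference between the saline arrays of 1.502, 0.80, −0.07 and 0.02, so the step away from Saline+Water was seen on 2 of 4.

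Among genes of these lists the order of the first Vegfa probe set, with both captopril arrays above both water arrays, was not the rule. It was seen in 1 of the 19 other endothelial surface and junction genes, Esm1, and in 3 of the 13 of oxygen sensing, Egln3, Bnip3 and Car9, beside 17.3% of all genes. The opposite order was seen in 5 of the 19 and in 2 of the 13, the hypoxia targets Slc2a1 and Adm, beside 11.4%. The oxygen sensing genes had a median captopril difference of −0.15 in saline mice and 0.03 in GN mice. Esm1, which encodes an endothelial proteoglycan known to be induced by VEGF-A, stood at 6.51 on Saline+Water, 7.85 on Saline+Captopril, 7.77 on GN+Captopril and 6.16 on the array labelled GN+Water. It was 2.54-fold higher on captopril in saline mice and 3.05-fold higher in GN mice, and these pairs share no array. Between the captopril arrays Esm1 differed by 0.08, and between the water arrays by 0.35. Car9, a carbonic anhydrase gene induced by hypoxia, stood at 6.81, 7.40, 7.76 and 6.67 in the same order of arrays, 1.51-fold and 2.13-fold higher on captopril. Each had 1 probe set, and each water array is one of the 2 that stood apart.

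**Figure D4:**
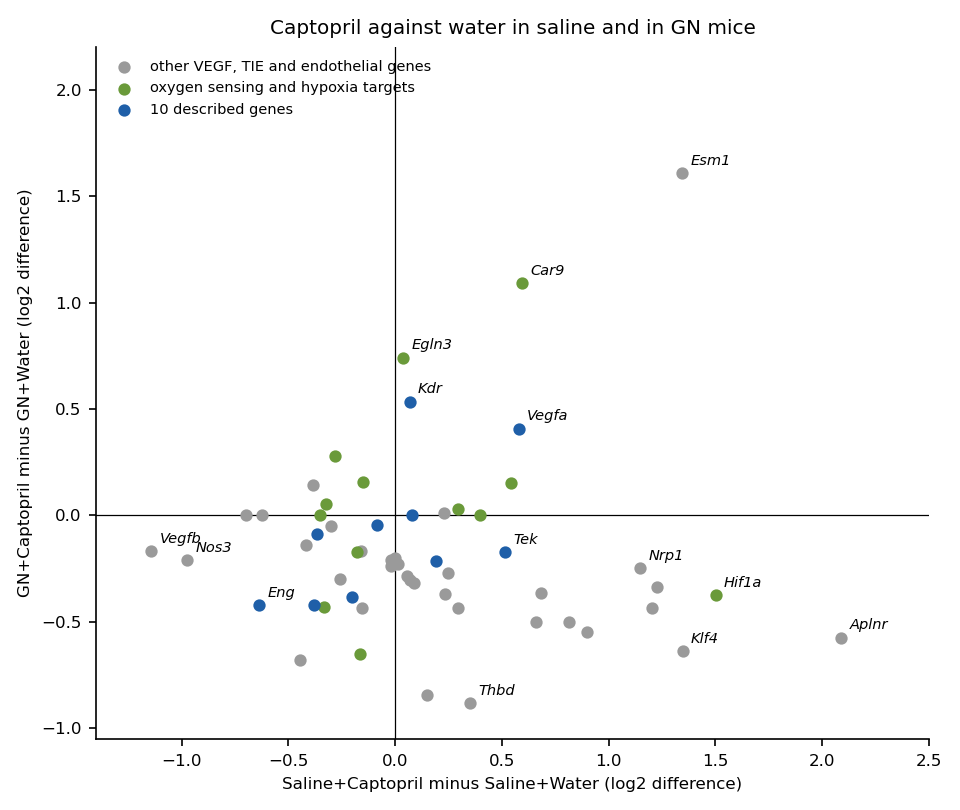
Captopril minus water in saline mice (horizontal, log2 difference) against captopril minus water in GN mice (vertical, log2 difference); each point is a gene past the level filter, and the axes share no array. Esm1 lies at 1.35 and 1.61, Vegfa at 0.58 and 0.41 and Kdr at 0.07 and 0.54.

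Across all 4 arrays the 10 genes spanned a median of 0.58 log2 units, against 0.51 for all genes, and without Saline+Water 0.42 against 0.20. Their spread on these 3 arrays ran from 0.08 for Flt1 to 0.61 for Cdh5. Ties aside, Saline+Water alone held the lowest level of 3 of the 10 genes and 41.3% of all genes, and Saline+Captopril that of 4 of the 10, Tie1, Cdh5, Emcn and Plvap, and 12.8% of all genes. The array labelled GN+Water alone held the highest level of 5 of the 10 and 27.3% of all genes. Both captopril arrays lay below both water arrays for 5 of the 10 genes, Tie1, Cdh5, Emcn, Plvap and Eng, beside 11.4% of all genes. They lay above them for Kdr and Vegfa, beside 17.3%. The order with captopril below was also seen in 4 of 7 pericyte and smooth muscle markers and 2 of 5 podocyte markers. It held for 2 of 5 artery, vein and Notch genes. It held for 0 of 7 endothelial transcription factors and 0 of 9 macrophage and leukocyte markers. These orders use the probe set with the highest mean and both arrays that stood apart.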

How the data were processed

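The values the authors deposited are on the log2 scale, 22690 per array, 1 a probe set, judged to be log2 from their range. GCOS and RMA are named per the submitters' processing notes, without version or role. How background was corrected and arrays were normalised, and on which build, is not given in the sources used here. Values were identical on 2 arrays for 1.38% to 7.62% of probe sets, depending on the pair, so a difference of 0 can come from how values were summarised. Gene names came from the platform annotation, updated by Entrez ID in RefSeq's GRCm38.p6 table; 20393 had 1 symbol, 691 several and 1606 none, and those with 1 were used.

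The value with the highest mean stood for a gene, and genes at or above the 40th percentile were kept. Differences between 2 arrays were computed with Python 3.11.15 and pandas 2.3.3, and quantile and cyclic loess alternatives with limma 3.58.1. There are 0 residual degrees of freedom, so there are no p-values, and precision is limited by the number of arrays. Counting was tested on simulated data. Members, lists and alternatives were chosen with earlier results of these data known. Named genes were the 10, up to 3 per list with the largest difference in any pair, and the 5 nearest profiles. Fli1, Sox17, Gata2, Bnip3, Slc2a1 and Adm were named as parts of counts after their values were seen. So were Erg, Sox7, Tal1 and Lyl1, as genes below the filter. The background limit of an array was the 90th percentile over 27 negative controls.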

Additional observations from a re-analysis of the deposited data

How the results depend on the processing

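No paired analysis was possible because each group has 1 array and the labels carry no shared replicate numbers. Of 272 values of single genes under alternatives, 268 moved by less than 1.5-fold, and 15 changed sign. The one at least 1.5-fold from 0 that changed sign was Eng between the saline arrays (0.0034 as the mean of its probe sets). 3 more moved further and changed sign, Vegfa with its probe sets averaged, at −0.33 for GN on water and −0.05 for captopril in saline mice, and Eng relative to Saline+Captopril, at 0.42. The other 11 sign changes moved by less, among them, for GN on water, Eng with its probe sets averaged at 0.29, Vegfa relative to Saline+Captopril at −0.30, and Kdr and Cdh5 with GN+Captopril in place at 0.14 and −0.18. Medians over the genes moved by less than 0.32 (log2) under every alternative run. With a log2 threshold of 0.32, 1 gene was higher in the captopril pair, beside 5.03% of all genes, and 0 were lower, beside 1.99%. In GN+Water minus Saline+Water 2 were higher, beside 30.2%, and 1 was lower, beside 27.8%. In GN+Captopril minus GN+Water 2 were higher, beside 11%, and 3 were lower, beside 11.2%. In Saline+Captopril minus Saline+Water 2 were higher, beside 26.6%, and 3 were lower, beside 23.2%. With a threshold of 2-fold, 0 passed in these pairs. The shares of all genes higher and lower were 0.719% and 0.0244% in the captopril pair and 10.3% and 4.42% in GN+Water minus Saline+Water. They were 1.39% and 1.12% in GN+Captopril minus GN+Water and 6.43% and 2.08% in Saline+Captopril minus Saline+Water. For GN+Water minus Saline+Water, 1 of 7 genes was higher with a filter at the 60th percentile, beside 19.4% of all genes. Without probe sets shared between transcripts 1 of 7 was higher, beside 19.0%, and relative to Saline+Captopril 1 of 10, beside 6.31%. With GN+Captopril in place of GN+Water 1 was lower, beside 10.2%. For Saline+Captopril minus Saline+Water, 0 were lower with probe sets averaged or without shared ones, beside 9.12% and 10.7%. Averaging left out Cdh5, which then missed the filter. Without shared probe sets Pecam1, Emcn and Eng were left out, so the calls on Pecam1 and Eng could not be made there. The filter at the 60th percentile left out Pecam1, Tie1 and Cdh5. Signal over background limits the weaker Cdh5 probe set, at 4.49 on GN+Captopril against a limit of 4.36.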
